A study of Mus musculus with 12 samples.

Results

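Fas, Fasl, Fadd and 7 further ligands of the tumour necrosis factor (TNF) family, Tnfsf4, Tnfsf8, Tnfsf10, Tnfsf11, Tnfsf14, Cd40lg and Cd70, were followed through 4 groups of mouse spleen T cells. All probe sets that the array annotation assigns to 1 of these 10 genes alone were taken. This gave 16 of the 45037 probe sets tested, for 10 of 18193 genes. Tnfsf10 had 3 probe sets, Fasl, Fadd, Tnfsf11 and Tnfsf14 had 2 each, and the other genes had 1. CD8+ NKT-like cells had 5 cultures, cultured CD4+ cells 3, and activated and naive CD8+ cells 2 samples each, all from female C57BL/6 mice aged 8 to 12 weeks by the labels, with no altered allele named. NKT-like cells were splenic CD8+ cells grown on beads coated with anti-CD3 and anti-CD28 in high-dose IL-2, and their titles record a suppressive function. Cultured CD4+ cells were sorted splenic cells grown in the same way, with less suppression by their titles. Activated CD8+ cells had received a low dose of the soluble antibodies, and naive CD8+ cells were freshly isolated by negative selection. Every sample was a bulk population. Fresh CD4+ cells were not analysed here, so in any difference of cultured CD4+ from naive CD8+ cells, lineage and culture cannot be told apart.

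Ligands of the TNF family are mostly trimeric membrane proteins that bind receptors on neighbouring cells. Fas ligand on activated killer T cells engages Fas on a target cell. Fas then binds the adaptor FADD through their shared death domains, and FADD recruits caspase-8, which starts apoptosis. TRAIL, the product of Tnfsf10, kills through a related receptor. The other ligands studied here mainly carry survival or costimulatory signals between T cells, B cells and dendritic cells, or, for RANKL, the product of Tnfsf11, signals to dendritic cells and osteoclast precursors.

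Values are log2 signals of Affymetrix whole-genome mouse arrays, 1 array per sample, and a probe set's level is compared only with itself in other samples. Array medians lay between 6.23 and 6.42, and the median of all values was 6.30. The SD of an array's values ran from 1.782 to 2.029. It was lowest in the naive arrays (1.832 and 1.782) and activated replicate 2 (1.799). Within each group, arrays correlated at r of 0.974 to 0.995 over all probe sets. The labelled lineages were borne out by their coreceptors. The mean of Cd8a and Cd8b1 was 10.27 to 11.73 in NKT-like, 6.46 to 6.97 in cultured CD4+, 10.55 to 11.07 in activated and 10.89 to 12.22 in naive samples, and Cd4 was 6.76 to 7.08, 9.82 to 10.10, 6.55 to 7.20 and 7.09 to 7.19 in the same order. Of 5 NK cell markers listed, 3 were measured. Among these only Eomes, which T cells also express, exceeded its naive level in NKT-like cells (2.97-fold), while Ncr1 and Klra8 did not pass. The study reported other NK receptor genes, those of NK1.1 and CD244 among them, as raised in these cultures. Some markers of other blood cells also differed between groups. The mean of 6 B cell markers was 6.08 to 6.10 in NKT-like, 5.97 to 6.12 in cultured CD4+, 6.37 to 6.46 in activated and 6.89 to 7.25 in naive samples, and in NKT-like cells 4 of the 6 were below naive. The mean of 4 red cell precursor markers was at most 6.20 in the 3 other groups and 7.77 to 8.21 in naive samples. This came from Klf1, an erythroid transcription factor, with 6.86 ± 0.04 in NKT-like against 11.09 ± 0.76 in naive samples (SD, n = 5 and 2), and from Ermap, with 6.66 ± 0.12 in NKT-like against 9.93 ± 0.30 in naive samples, while the haemoglobin gene Hba-a1 (q = 0.10) and the haem synthesis gene Alas2 (q = 0.41) did not pass between NKT-like and naive cells. The mean of 3 platelet markers was highest in activated samples, at 6.32 to 6.57, against 6.16 to 6.17 in naive samples. Of the 3, Pf4 was 1.63-fold higher in activated than in naive cells (q = 0.0043). Ppbp (q = 0.45) and Itga2b (q = 0.58) did not pass. Means of 7 myeloid markers were 6.13 to 6.25 in NKT-like and 6.38 to 6.67 in naive samples. Means of 4 dendritic cell markers were 6.99 to 7.22 and 7.47 to 7.53. In NKT-like cells 2 of the 7 and none of the 4 passed below naive. Of 4 T cell markers, 1 passed there, Cd5, which was 4.11-fold below naive (q = 0.0091). The markers that differed moved with the comparisons to naive or activated cells below, and their part in those results was not tested.

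Differences were tested with limma, fitted over all 4 groups, and were called, or passed, where the q-value (the expected share of false calls) was no more than 0.01, whatever the fold change. Against naive cells, 4 of 16 probe sets were higher and none lower in NKT-like cells, where 7.83% of all probe sets were higher and 8.52% lower. They belonged to Fasl (2 of the 4), Tnfsf10 and Tnfsf11. In cultured CD4+ cells 4 were higher and none lower, those of Tnfsf10, Tnfsf11, Tnfsf14 and Cd70, against 8.18% of all probe sets higher and 7.31% lower. In activated cells 3 were higher and none lower, those of Tnfsf11, Tnfsf14 and Cd70, against 3.10% of all higher and 2.60% lower. Between NKT-like and cultured CD4+ cells, Fasl was higher and Fas lower in NKT-like cells, 1 of 16 each way, where 0.850% of all were higher and 1.33% lower. Between NKT-like and activated cells 1 probe set of Fasl was higher and those of Fas, Tnfsf11 and Tnfsf14 were lower in NKT-like cells, where 2.19% of all were higher and 0.979% lower. Cultured CD4+ and activated cells differed in none of the 16 by limma, where 1.11% of all were higher and 0.351% lower, with 2 of the 16 at an unadjusted p below 0.05 and 0 after Benjamini-Hochberg adjustment. Over the 16 probe sets the median log2 difference was 0.54 for NKT-like, 0.64 for cultured CD4+ and 0.26 for activated cells against naive cells, beside −0.10, −0.10 and −0.07 over all probe sets. The comparisons share samples and are not independent of each other.

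**Figure D1:**
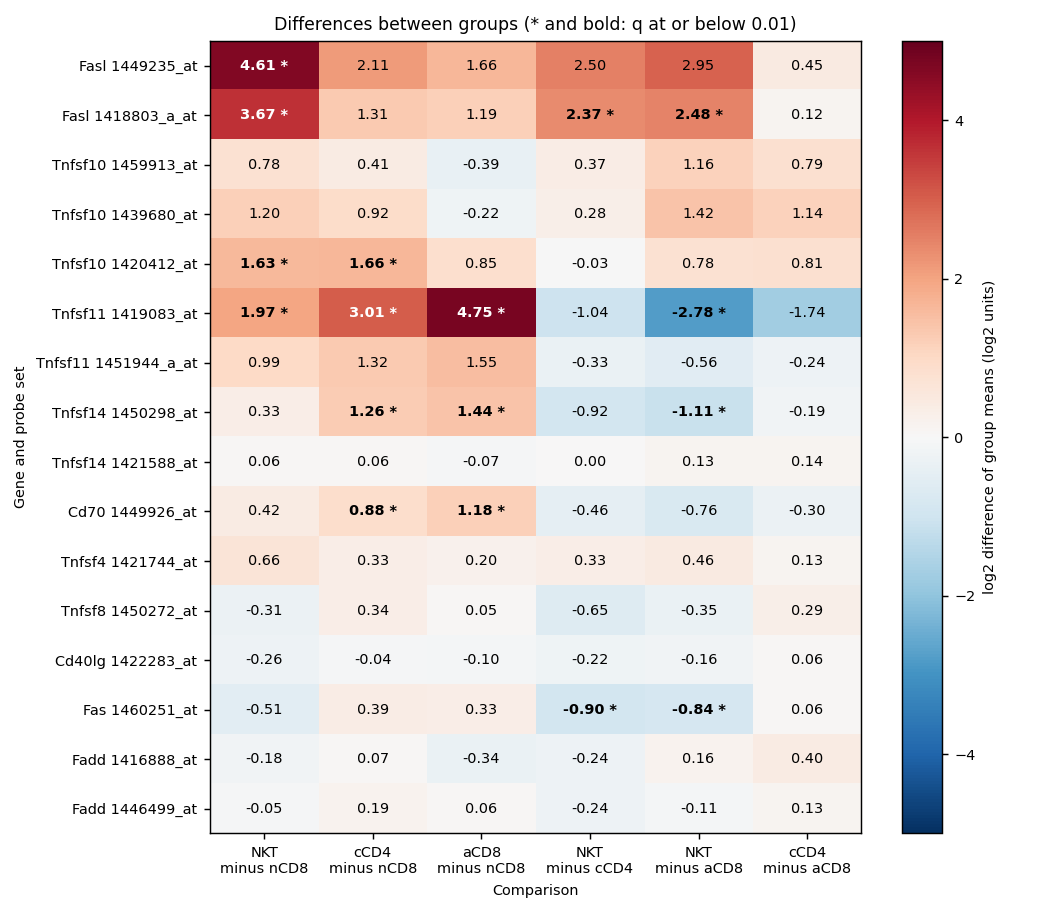
Log2 difference of group means for each of the 16 probe sets (rows) in the 6 comparisons (columns), first group minus second, with red for higher and blue for lower in the first group and an asterisk where q was 0.01 or less. Fasl stands at 4.61 and 3.67 in NKT-like minus naive cells and Tnfsf11 at 4.75 in activated minus naive cells, while no entry of the last column passed. NKT stands for NKT-like, cCD4 for cultured CD4+, aCD8 for activated and nCD8 for naive CD8+ cells, here and in the other plots.

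Promoters are shown for the genes on which these comparisons turned: Fasl, which set NKT-like cells apart from naive cells, Fas, which was lower in NKT-like than in the other stimulated groups, and Tnfsf11 and Tnfsf14, which shared their rise in cultured CD4+ and activated cells. Each is the 250 bases before the start of the RefSeq gene (GRCm38.p6), read 5′ to 3′ on the gene's strand, for Fasl at chr1:161788496-161788745 (minus), Fas at chr19:34290409-34290658 (plus), Tnfsf11 at chr14:78308044-78308293 (minus) and Tnfsf14 at chr17:57194182-57194431 (minus). Capitals mark matches on either strand to the AP-1 motif TGANTCA, to the NFAT core GGAAA, or to the NF-kappaB motif; these factors act downstream of the T cell receptor, and their motifs overlapped in none of the windows shown.
Fasl: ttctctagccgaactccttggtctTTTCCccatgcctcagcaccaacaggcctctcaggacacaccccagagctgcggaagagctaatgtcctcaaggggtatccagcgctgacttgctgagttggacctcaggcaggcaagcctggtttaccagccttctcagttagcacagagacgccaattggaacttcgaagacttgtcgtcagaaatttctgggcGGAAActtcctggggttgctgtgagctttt
Fas: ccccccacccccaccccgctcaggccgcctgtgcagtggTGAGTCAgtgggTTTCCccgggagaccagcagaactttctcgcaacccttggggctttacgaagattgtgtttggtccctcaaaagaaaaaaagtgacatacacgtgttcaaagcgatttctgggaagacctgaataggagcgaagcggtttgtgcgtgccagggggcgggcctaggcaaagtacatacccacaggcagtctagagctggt
Tnfsf11: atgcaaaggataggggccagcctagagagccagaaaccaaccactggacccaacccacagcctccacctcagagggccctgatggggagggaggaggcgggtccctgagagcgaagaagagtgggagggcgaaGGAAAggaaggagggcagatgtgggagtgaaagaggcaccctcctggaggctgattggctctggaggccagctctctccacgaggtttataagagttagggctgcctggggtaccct
Tnfsf14: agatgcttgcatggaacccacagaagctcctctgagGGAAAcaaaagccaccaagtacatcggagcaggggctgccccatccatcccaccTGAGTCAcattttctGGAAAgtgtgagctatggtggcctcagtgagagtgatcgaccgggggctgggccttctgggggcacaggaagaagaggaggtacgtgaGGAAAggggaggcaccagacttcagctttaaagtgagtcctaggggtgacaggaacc
Promoters of 7 of the 10 genes were matched, and Cd70, which also rose in cultured CD4+ and activated cells, was not among them. The AP-1 motif occurred once in Fas, 211 bases before the start, and once in Tnfsf14, 160 bases before the start, and in no window of the other 5, against 6.75% of 32851 promoters of the same length. The NFAT core occurred 3 times in Tnfsf14, 2 times in Fasl and 1 time in each of the other 5, and 55.6% of all promoters held it. No NF-kappaB match was found in the 7, against 3.9% of all. A match is a run of letters and does not show binding.

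Fasl, the gene of Fas ligand, was highest in NKT-like cells, above every other sample in both probe sets. Probe set 1449235_at read 10.91, 11.57, 10.77, 10.85 and 10.96 in the 5 NKT-like cultures, 6.52, 9.51 and 9.52 in cultured CD4+ cells, 8.48 and 7.65 in activated cells and 6.32 and 6.49 in naive cells. Cultured CD4+ replicate 1 thus lay at the naive level and about 3 log2 units under its fellow cultures. The NKT-like mean of 11.01 ± 0.32 was 24.4-fold that of naive cells at 6.40 ± 0.12 (95% interval 8.95 to 66.6, q = 0.00032, SD, n = 5 and 2). Ratios of 5.65 to cultured CD4+ cells (q = 0.028) and 7.72 to activated cells (q = 0.015) missed the threshold, as did cultured CD4+ over naive cells at 4.33-fold (q = 0.023) and activated over naive cells at 3.17-fold (q = 0.14). All 4 passed once cultured CD4+ replicate 1 was left out. Without it, NKT-like cells were 2.83-fold above cultured CD4+ (q = 0.0053) and 7.72-fold above activated cells (q = 7.1e-05). Cultured CD4+ and activated cells were then 8.64-fold (q = 4.1e-05) and 3.17-fold (q = 0.0033) above naive cells. That array enters the ratios of activated cells only through the spread shared by the 4 groups. On all arrays, NKT-like over activated cells passed when that pair was fitted alone (q = 0.0015), but not in most other settings. In bulk RNA, fewer expressing cells and less RNA per cell cannot be told apart.

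The second Fasl probe set, 1418803_a_at, followed the first closely (r = 0.97 over 12 arrays). It measured 9.40, 9.90, 9.64, 9.58 and 10.11 in NKT-like cells, 6.23, 7.98 and 7.87 in cultured CD4+ cells, 7.27 and 7.21 in activated cells and 6.35 and 5.76 in naive cells. Again no other sample reached the lowest NKT-like culture, and cultured CD4+ replicate 1 fell among the naive samples. NKT-like cells stood 12.8-fold over naive (q = 5.7e-05), 5.15-fold over cultured CD4+ (q = 0.0023) and 5.59-fold over activated cells (q = 0.0027). The difference from activated cells was lost without activated replicate 1 (q = 0.011) or replicate 2 (q = 0.035), fits in which the remaining activated array was assumed to vary like the other groups. Differences from naive and cultured CD4+ cells passed in all 12 fits that left out 1 array each. Without cultured CD4+ replicate 1, cultured CD4+ cells at 3.66-fold (q = 0.00022) and activated cells at 2.28-fold (q = 0.0063) also passed against naive cells, which they did not over all arrays (q = 0.022 and 0.094).

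**Figure D2:**
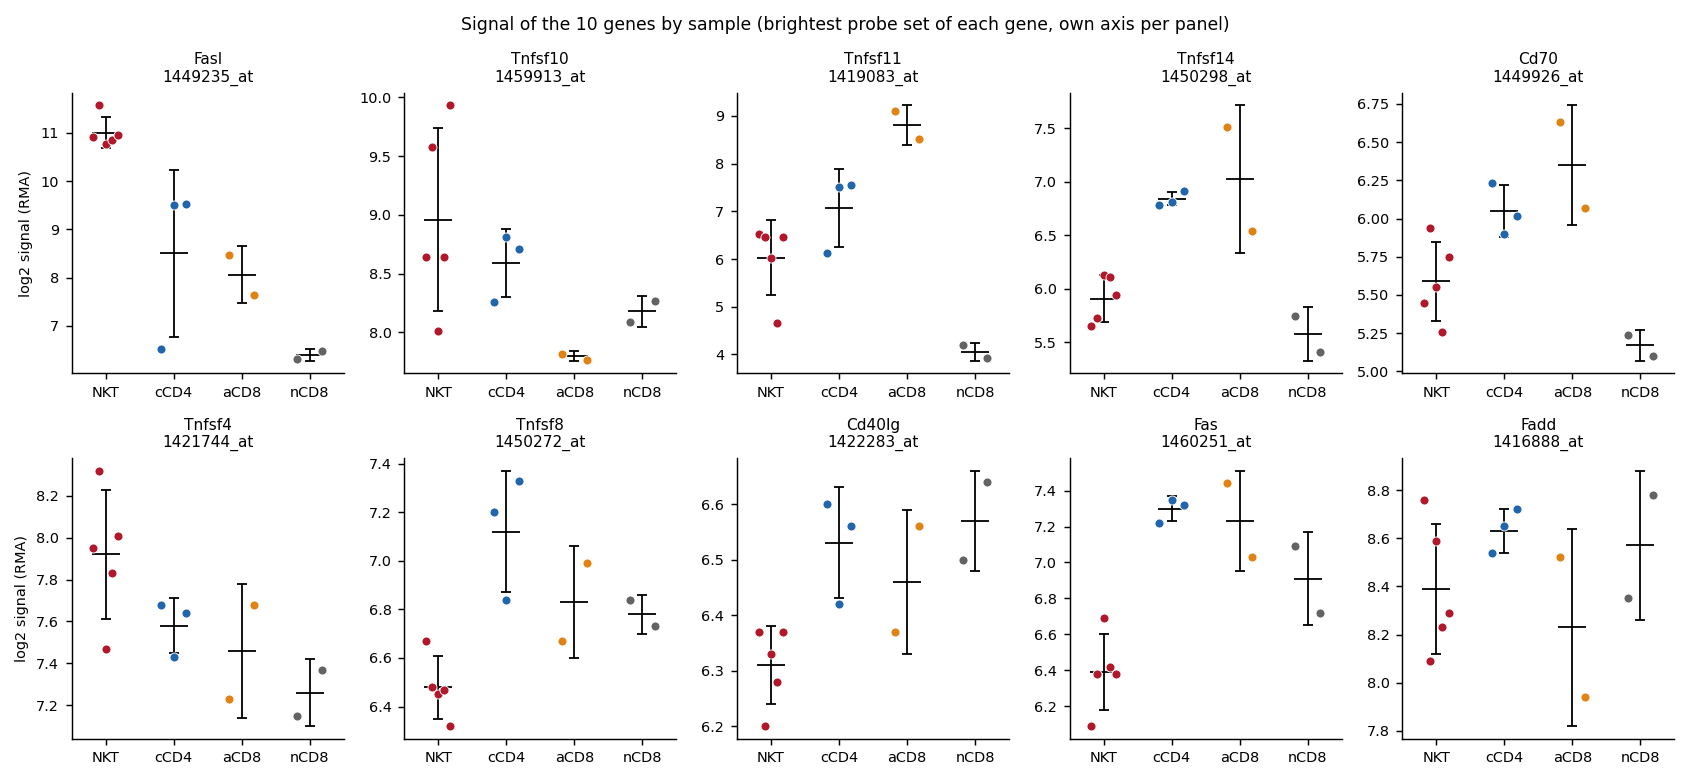
Log2 signal of the brightest probe set of each of the 10 genes, 1 point per sample, with a bar for the group mean and whiskers of 1 SD; each panel has its own axis. The 5 NKT-like points lie above all others for Fasl, the 2 activated points for Tnfsf11, and cultured CD4+ replicate 1 sits at 6.52 for Fasl beside its fellow cultures at 9.51 and 9.52.

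Tnfsf10, which encodes the death ligand TRAIL, was higher than naive in both kinds of culture by 1 of its 3 probe sets. Probe set 1420412_at read 7.09, 7.81, 6.57, 7.11 and 7.55 in NKT-like cells, 6.50, 7.61 and 7.67 in cultured CD4+ cells, 6.55 and 6.34 in activated cells and 5.62 and 5.58 in naive cells. All cultures lay above the naive samples, and NKT-like and cultured CD4+ values overlapped. The ratios to naive were 3.09 in NKT-like (q = 0.003) and 3.16 in cultured CD4+ cells (q = 0.0044). Activated cells stood at 1.80-fold (q = 0.15). Leaving out naive replicate 1 or 2 ended both calls, with q of 0.025 and 0.051 for NKT-like and 0.027 and 0.046 for cultured CD4+ cells. The cultured CD4+ call was also lost without its replicate 2 (q = 0.023) or 3 (q = 0.021).

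In the other 2 Tnfsf10 probe sets the naive samples were not the lowest. Probe set 1459913_at measured 8.64, 9.58, 8.01, 8.64 and 9.93 in NKT-like, 8.26, 8.81 and 8.71 in cultured CD4+, 7.82 and 7.77 in activated and 8.09 and 8.27 in naive samples, and the NKT-like ratio to naive was 1.71 (q = 0.081). Probe set 1439680_at measured 7.77, 9.0, 7.19, 8.08 and 8.97 in NKT-like, 7.48, 7.96 and 8.33 in cultured CD4+, 6.82 and 6.75 in activated and 6.93 and 7.08 in naive samples, with an NKT-like ratio to naive of 2.29 (q = 0.028) that passed only without NKT-like replicate 3 (2.73-fold, q = 0.0069). All 3 probe sets ranked NKT-like replicates 2 and 5 highest and replicate 3 lowest of the NKT-like cultures, and they correlated at r of 0.73 to 0.96. They differed in the activated cells, where the ratio to naive was 0.765, 0.857 and 1.80 in 1459913_at, 1439680_at and 1420412_at. None of the 3 differences passed, so no direction is given for Tnfsf10 in activated cells.

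Tnfsf11, the RANKL gene, showed the largest difference from naive among the 16 probe sets in activated cells. Probe set 1419083_at read 6.52, 6.47, 6.03, 4.67 and 6.46 in NKT-like cells, 6.13, 7.52 and 7.56 in cultured CD4+ cells, 9.10 and 8.52 in activated cells and 4.19 and 3.92 in naive cells. No stimulated sample overlapped with the naive ones, and the activated pair lay above all others. Group means were 6.03 ± 0.79, 7.07 ± 0.81, 8.81 ± 0.41 and 4.06 ± 0.19 in that order (SD, n = 5, 3, 2 and 2). The ratio to naive was 27 in activated (95% interval 10.7 to 68.3, q = 0.00064), 8.06 in cultured CD4+ (q = 0.0015) and 3.92 in NKT-like cells (q = 0.0075). NKT-like cells were 6.89-fold lower than activated cells (q = 0.0054). Cultured CD4+ cells, 3.35-fold lower than activated, did not pass (q = 0.10), nor did NKT-like against cultured CD4+ cells (2.06-fold lower, q = 0.25).

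The rise of Tnfsf11 in activated cells passed in all 12 fits without 1 array, at 22.1-fold to 33.1-fold. That in cultured CD4+ cells missed the threshold without naive replicate 1 (q = 0.011) or 2 (q = 0.024). That in NKT-like cells was less secure and passed in 5 of 12 fits. It was lost without NKT-like replicate 1, 2, 3 or 5 (q = 0.016, 0.014, 0.013 and 0.015), without cultured CD4+ replicate 2 (q = 0.010 after rounding, just over the threshold) and without naive replicate 1 or 2 (q = 0.039 and 0.11). The difference from activated cells was lost without NKT-like replicate 3 (q = 0.012) and without activated replicate 1 or 2 (q = 0.024 and 0.035). The second probe set, 1451944_a_at, moved over a smaller range, with 6.80, 5.99, 6.27, 5.42 and 6.62 in NKT-like, 6.50, 6.80 and 6.34 in cultured CD4+, 7.30 and 6.27 in activated and 5.16 and 5.30 in naive samples. Its stimulated samples also all lay above the naive ones, but its ratios to naive of 1.99, 2.49 and 2.93 in NKT-like, cultured CD4+ and activated cells missed the threshold (q = 0.026, 0.013 and 0.023). They passed without NKT-like replicate 4 for NKT-like (2.28-fold, q = 0.0088) and cultured CD4+ cells (q = 0.0063), without activated replicate 1 or 2 for cultured CD4+ cells (q = 0.007 each), and without activated replicate 2 for activated cells (4.19-fold, q = 0.0078). The 2 probe sets correlated at r = 0.84.

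Tnfsf14, whose product LIGHT binds the herpesvirus entry mediator and the lymphotoxin beta receptor, was higher than naive in cultured CD4+ and activated cells by probe set 1450298_at. It read 5.65, 5.73, 6.13, 6.11 and 5.94 in NKT-like cells, 6.78, 6.81 and 6.91 in cultured CD4+ cells, 7.51 and 6.54 in activated cells and 5.75 and 5.41 in naive cells. NKT-like cultures overlapped with the naive samples and lay below every cultured CD4+ and activated sample. Ratios to naive were 2.39 in cultured CD4+ (q = 0.0021), 2.72 in activated (q = 0.0047) and 1.26 in NKT-like cells (q = 0.13). NKT-like cells were 2.16-fold lower than activated cells (q = 0.0099), a call that held in only 1 of 12 fits, the one without activated replicate 2 (ratio 0.331), and had q of up to 0.038 in the other 11. Against cultured CD4+ cells they were 1.90-fold lower, with q = 0.020 over all arrays and 0.0026 without either activated array. The activated rise was lost without activated replicate 1 (1.94-fold, q = 0.026) or naive replicate 1 or 2 (q = 0.015 and 0.057), and the cultured CD4+ rise without its replicate 3 (q = 0.010 after rounding) or naive replicate 2 (q = 0.04). The second probe set of Tnfsf14, 1421588_at, held group means of 5.72, 5.72, 5.58 and 5.65, below the median of all values in every group, and did not follow the first (r = −0.05). Its values ran from 5.44 to 6.05, and none of its differences passed.

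Cd70, the ligand of the costimulatory receptor CD27, had the same order of groups as Tnfsf11 and Tnfsf14, at low signal. Probe set 1449926_at measured 5.45, 5.94, 5.55, 5.26 and 5.75 in NKT-like cells, 6.23, 5.90 and 6.02 in cultured CD4+ cells, 6.63 and 6.07 in activated cells and 5.24 and 5.10 in naive cells. Only activated replicate 1 exceeded the median of all values, 6.30. Ratios to naive were 2.26 in activated (q = 0.0055), 1.84 in cultured CD4+ (q = 0.0055) and 1.34 in NKT-like cells (q = 0.056). NKT-like cells had 0.592 times the activated level (q = 0.026). The activated rise was lost without activated replicate 1 (q = 0.048) or naive replicate 1 or 2 (q = 0.024 and 0.056). The cultured CD4+ rise was lost without any 1 of its 3 cultures (q = 0.010 after rounding, 0.014 and 0.019) or of the naive samples (q = 0.024 and 0.065).

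**Figure D3:**
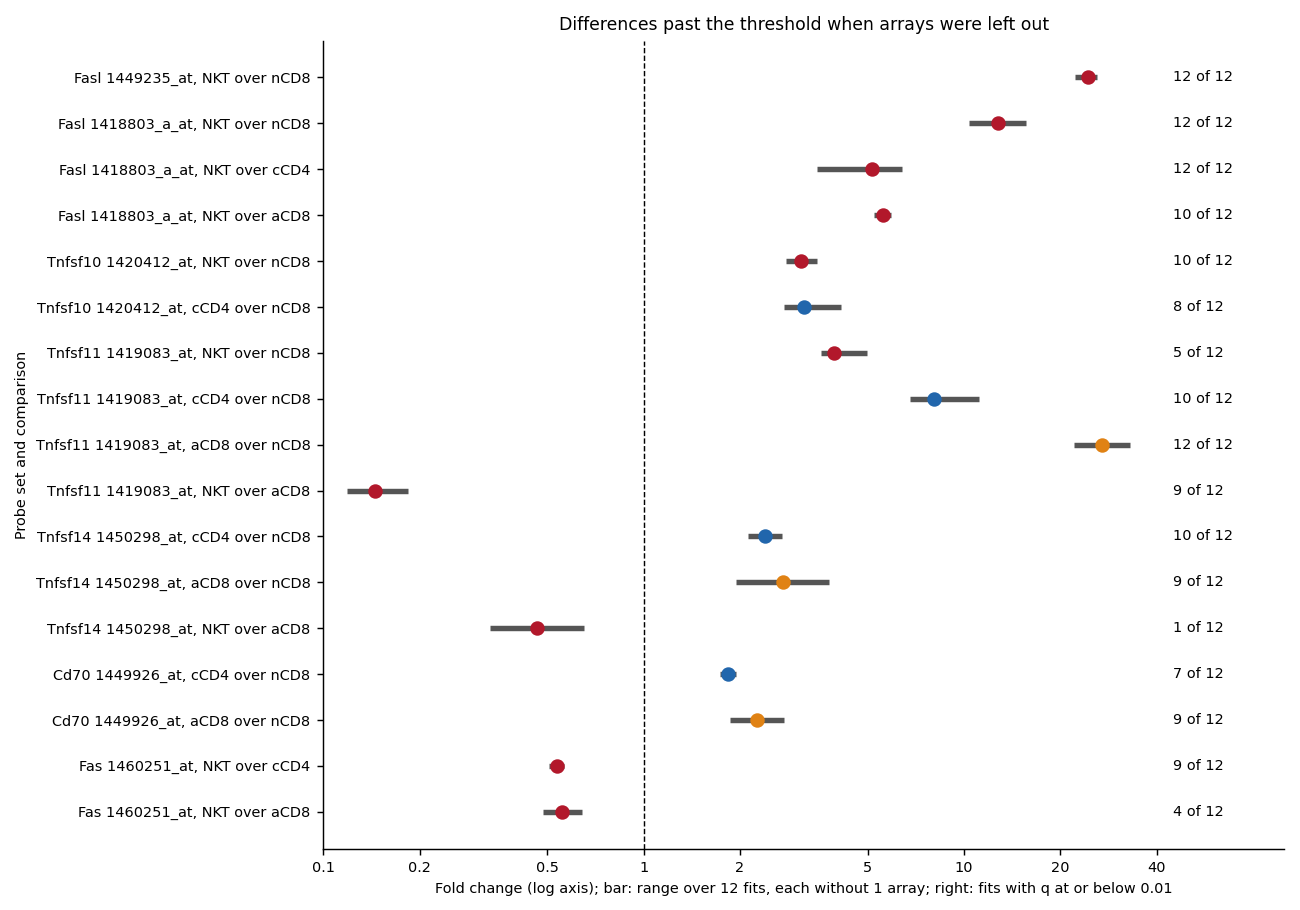
Fold change, on a log axis, of the 17 differences that passed, with a point for the fit on all 12 arrays, coloured by the first group, and a bar for the range over 12 fits that each left out 1 array; figures at the right count the fits in which q stayed at 0.01 or less. Fasl in NKT-like over naive cells and Tnfsf11 in activated over naive cells passed in 12 of 12, and Tnfsf14 in NKT-like over activated cells in 1 of 12.

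The remaining 3 ligands passed in no comparison. Tnfsf4, whose product OX40 ligand costimulates T cells, measured 7.95, 8.32, 7.47, 7.83 and 8.01 in NKT-like cells, 7.68, 7.43 and 7.64 in cultured CD4+ cells, 7.23 and 7.68 in activated cells and 7.15 and 7.37 in naive cells. The NKT-like values all lay above the naive ones, and their ratio of 1.58 (95% interval 1.16 to 2.14) had q = 0.015, or 0.0047 without NKT-like replicate 3. Tnfsf8, the CD30 ligand gene, measured 6.67, 6.48, 6.45, 6.47 and 6.32 in NKT-like, 7.20, 6.84 and 7.33 in cultured CD4+, 6.67 and 6.99 in activated and 6.84 and 6.73 in naive samples. Its NKT-like to cultured CD4+ ratio of 0.639 (95% interval 0.526 to 0.776) had q = 0.013, and passed without cultured CD4+ replicate 2 (q = 0.0076) or either activated array (q = 0.0096). Cd40lg, the CD40 ligand through which helper T cells license B cells, was nearly flat, with 6.37, 6.20, 6.33, 6.28 and 6.37 in NKT-like, 6.60, 6.42 and 6.56 in cultured CD4+, 6.37 and 6.56 in activated and 6.50 and 6.64 in naive samples. For Cd40lg the cultured CD4+ to activated ratio was 1.04 (95% interval 0.887 to 1.23, q = 0.59), and NKT-like to naive was 0.834 (95% interval 0.719 to 0.969, q = 0.032).

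Fas itself, the receptor, was lowest in the NKT-like cultures, where its ligand was highest. Probe set 1460251_at read 6.09, 6.38, 6.69, 6.42 and 6.38 in NKT-like cells, 7.22, 7.35 and 7.32 in cultured CD4+ cells, 7.44 and 7.03 in activated cells and 7.09 and 6.72 in naive cells. Every NKT-like culture lay below every other sample, the nearest being NKT-like replicate 3 at 6.69 and naive replicate 2 at 6.72. NKT-like cells at 6.39 ± 0.21 had 1.87-fold less Fas signal than cultured CD4+ cells at 7.30 ± 0.07 (q = 0.0036, SD, n = 5 and 3) and 1.79-fold less than activated cells (q = 0.0075), while the ratio of 0.70 to naive cells did not pass (95% interval 0.545 to 0.899, q = 0.018). Cultured CD4+ and activated cells stood at 1.31-fold (q = 0.059) and 1.26-fold (q = 0.22) over naive. The difference from cultured CD4+ cells was lost without NKT-like replicate 5 (q = 0.011) or cultured CD4+ replicate 2 or 3 (q = 0.024 and 0.025). The difference from activated cells passed in 4 of 12 fits and was lost without NKT-like replicate 1, 2, 4 or 5 (q = 0.012, 0.014, 0.017 and 0.016), cultured CD4+ replicate 2 or 3 (q = 0.014 and 0.013) and activated replicate 1 or 2 (q = 0.034 and 0.018), with ratios of 0.486 to 0.641.

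Fadd, the adaptor between Fas and caspase-8, passed in no comparison. Probe set 1416888_at measured 8.76, 8.09, 8.59, 8.23 and 8.29 in NKT-like, 8.54, 8.65 and 8.72 in cultured CD4+, 8.52 and 7.94 in activated and 8.35 and 8.78 in naive samples. The 4 groups overlapped except for cultured CD4+ above activated cells, a ratio of 1.32 with q = 0.30. The NKT-like to naive ratio was 0.886 with a 95% interval of 0.648 to 1.21. The other probe set, 1446499_at, lay below the median of all values in every group, at means of 5.83, 6.07, 5.93 and 5.88, and correlated with the first at r = 0.32.

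**Figure D4:**
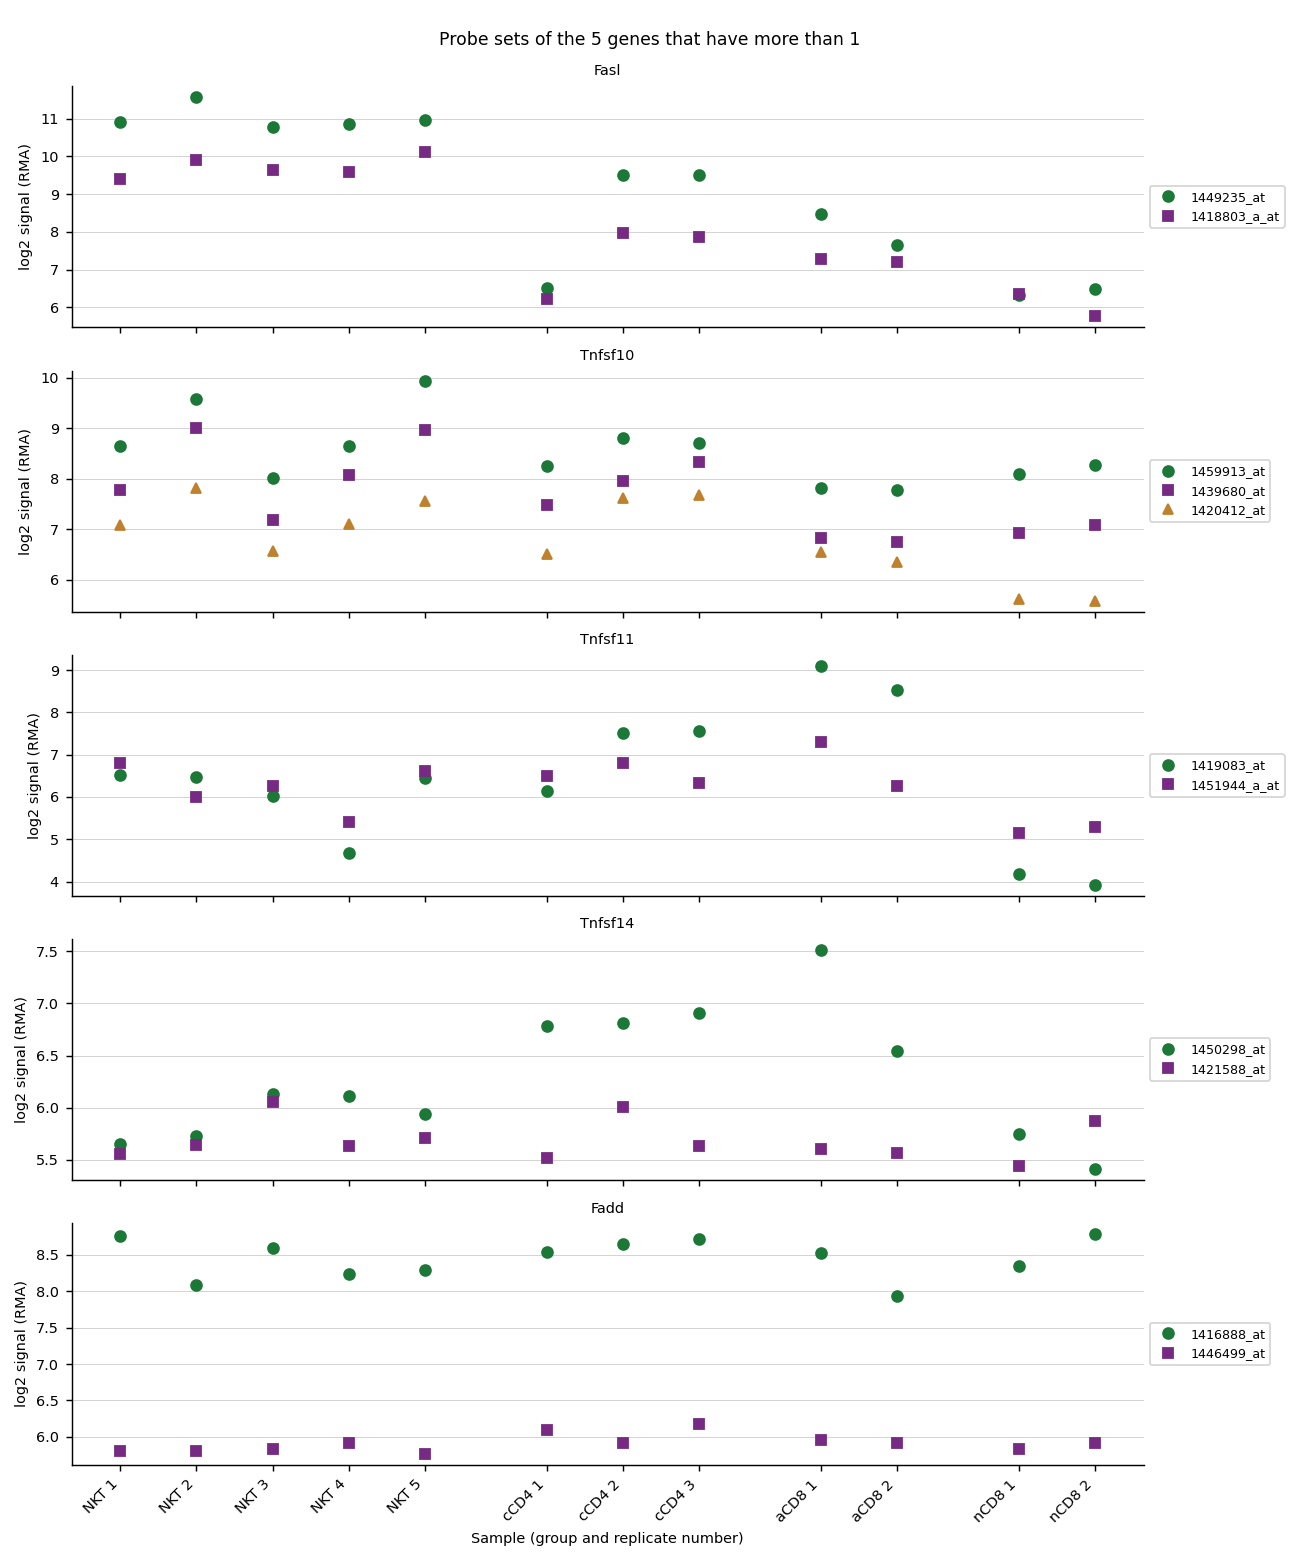
Log2 signal of each probe set of the 5 genes that have more than 1, by sample, with NKT-like cultures at the left and naive samples at the right; heights of different probe sets are not comparable. Both Fasl probe sets drop together in cultured CD4+ replicate 1 (6.52 and 6.23), the Tnfsf10 sets part in the activated and naive samples, and 1421588_at of Tnfsf14 stays between 5.44 and 6.05.

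Among the members, patterns over the 12 arrays were alike for Tnfsf11 and Cd70 (r = 0.87), Tnfsf14 and Cd70 (r = 0.85), and Tnfsf11 and Tnfsf14 (r = 0.76), taking the brightest probe set of each gene. After the group means were taken out, these fell to 0.38, 0.31 and −0.04, so most of the likeness lay between groups. Fas and Tnfsf14 correlated at r = 0.78 and at 0.83 within groups, and Fas and Fasl at −0.60 and 0.21 within groups. The arrays share groups and are a description only. Of 3727 genes with an SD of at least 0.5 over the arrays, those most like Fasl were Osbpl3 (r = 0.978), Dennd11 (0.971) and Gzmc, which encodes the killer protease granzyme C (0.968, and 0.97 within groups). Within groups, Fasl varied most among cultured CD4+ samples, with an SD of 1.73 against at most 0.59 in the other groups. Its within-group r therefore rests largely on those 3 cultures, of which replicate 1 was low. Tnfsf11 was closest to Lta, the lymphotoxin alpha gene (0.965, 0.91 within groups), followed by Hivep3 (0.948) and Gtf2e2 (0.946). Fas was closest to Lrch1 (0.961), Cd5 (0.936) and Cd6 (0.935), the last of which, like Cd5, encodes a T cell surface receptor. Tnfsf10 was closest to Serpinb9b, of a family of protease inhibitors (0.925), Mcpt8 (0.910) and Ctbp2 (0.892). Tnfsf14 was closest to Cul7 (0.970), Plagl2 (0.935) and Eif4enif1 (0.933), and Cd70 to Nrn1 (0.919), Hivep3 (0.915) and Irf4, a transcription factor induced by antigen receptor signals (0.898). Tnfsf4 was closest to the costimulatory ligand gene Cd80 (0.888), then Tmem14a (0.834) and Sema6d (0.832). The likeness was weaker for Tnfsf8, with Cd81 at 0.861, Irgm2 at 0.845 and St3gal1 at 0.842, for Cd40lg, with Igf1r at 0.829, Cxcr4 at 0.793 and Cd24a at 0.792, and for Fadd, with H2ac19 at 0.729, Sike1 at 0.697 and Sympk at 0.666.

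Receptors that pair with these ligands were also compared. Of 11 measured, 2 were higher and 1 lower than naive in NKT-like cells, 1 was higher in cultured CD4+ and 1 in activated cells, where 17.6%, 17.1% and 7.03% of all genes passed in either direction. Tnfrsf4, the OX40 receptor for the Tnfsf4 ligand, averaged 10.23 ± 0.80 in NKT-like, 13.20 ± 0.07 in cultured CD4+, 12.13 ± 0.40 in activated and 8.63 ± 0.07 in naive cells. It was 3.05-fold (q = 0.0083), 23.8-fold (q = 4.1e-05) and 11.3-fold (q = 0.0013) above naive in the stimulated groups, and NKT-like cells had 7.81-fold less than cultured CD4+ cells (q = 0.00078). Tnfrsf11b, which encodes osteoprotegerin, a secreted decoy receptor for RANKL, was higher in NKT-like cells at 7.40 ± 0.47, by 2.79-fold over cultured CD4+ (q = 0.0027), 2.74-fold over activated (q = 0.0046) and 2.84-fold over naive cells (q = 0.00093). Those Tnfrsf11b ratios come from its brightest probe set alone. The study reported a far larger rise of this gene over naive cells by array, and stated that RT-PCR bore out the change. Ltbr, a LIGHT receptor, was 1.39-fold below naive in NKT-like cells (q = 0.0092). Neither the TRAIL receptor gene Tnfrsf10b nor Cd27, Cd40, Tnfrsf14, Tnfrsf8, Tnfrsf11a, Tnfrsf22 or Tnfrsf23 passed in any of the 6 comparisons.

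Of 5 further TNF family ligands measured, 3 were higher and 1 lower than naive in each stimulated group, beside 17.6%, 17.1% and 7.03% of all genes passing in either direction in NKT-like, cultured CD4+ and activated cells. Lta exceeded naive by 3.87-fold in NKT-like (q = 0.00093), by 5.09-fold in cultured CD4+ (q = 0.00054) and by 27.8-fold in activated cells (q = 3.7e-05), with NKT-like cells 7.18-fold under activated cells (q = 0.0004) and cultured CD4+ cells 5.47-fold under them (q = 0.0031). Tnfsf9, the 4-1BB ligand gene, rose 3.55-fold, 4.39-fold and 2.60-fold in NKT-like, cultured CD4+ and activated cells (q = 0.00017, 0.00012 and 0.0067). Tnf was 1.58-fold higher in NKT-like (q = 0.0029) and 1.92-fold higher in activated cells (q = 0.0034), and Tnfsf13b, the BAFF gene, 1.89-fold higher in cultured CD4+ cells (q = 0.0086). Ltb, which encodes lymphotoxin beta, went the other way and was 8.24-fold (q = 0.0012), 5.78-fold (q = 0.0049) and 7.80-fold (q = 0.0091) lower than naive in NKT-like, cultured CD4+ and activated cells. B cells also express Ltb, and their markers were higher in the naive samples as given above. Whether B cells had a part in the Ltb difference was not tested.

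Downstream of Fas, 9 genes of signalling and execution were measured. NKT-like cells had 2 above naive, cultured CD4+ cells 5 and activated cells 1, and none was below, beside 17.6%, 17.1% and 7.03% of all genes in either direction. Apaf1, the scaffold of the apoptosome, rose 2.88-fold with q = 0.0013 in NKT-like and 3.34-fold with q = 0.0011 in cultured CD4+ cells, and Faim, an inhibitor of Fas-induced death, 1.72-fold in NKT-like cells (q = 0.0078). Casp6, an executioner caspase, averaged 7.77 ± 0.37 in NKT-like, 10.70 ± 0.23 in cultured CD4+, 8.27 ± 0.49 in activated and 8.29 ± 0.19 in naive cells. Its cultured CD4+ level was 5.38-fold that of activated (q = 0.00061) and 5.32-fold that of naive cells (q = 8.6e-05), and NKT-like cells had 7.62-fold less than cultured CD4+ cells (q = 1.8e-05). Casp8, the caspase that FADD recruits, exceeded naive by 1.91-fold (q = 0.0096), Faf1, a Fas-binding protein, by 2.21-fold (q = 0.007) and Cycs, the cytochrome c gene, by 1.71-fold (q = 0.0037) in cultured CD4+ cells, Casp8 and Cycs being named after their values were seen, and Cycs was 2.00-fold higher in activated cells (q = 0.0045). Bid, which links caspase-8 to mitochondria, was 2.95-fold above cultured CD4+ cells in NKT-like cells (q = 0.0017). Among 7 measured adaptors of the TRAF and IAP families and TRADD, none passed against naive cells, and Tradd was 2.38-fold higher in NKT-like than in activated cells (q = 0.0019).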

How the data were processed

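Total RNA was labelled with biotin and hybridised to Affymetrix whole-genome mouse arrays, 1 per sample. The authors deposited log2 values from RMA, which corrects background, normalizes quantiles and summarizes probes per probe set. Neither its version nor whether the 12 arrays went through it together is given in the sources used here. RMA values near the low end include array background, so low signals understate ratios. The number of arrays limits the precision. Labels give 2 µg of labelled RNA per sample, and the study's methods give another amount and age.

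Of 45101 probe sets, 64 controls were left out. The annotation gives 1 symbol for 34945, several for 932 and none for 9160, and names are those of that annotation, with 162 Entrez identifiers absent from the RefSeq gene table. A model of the 4 groups was fitted with limma 3.58.1 in R 4.3.3 (8 residual, 3.03 prior degrees of freedom) for 6 pairwise comparisons, with Storey q-values per comparison over all 45037 probe sets. The procedure was tested on simulated data. All probe sets of the 10 genes are reported. Other genes are represented by their brightest probe set on average, with values for up to 3 passing members of a list in each direction. The members and lists were chosen with earlier results of these data known. The methods describe the cultures as independent; where samples shared a source, p-values measure only the spread between these samples. Replicate numbers were not treated as pairs, since the labels tie a number to no shared animal or day. Correlations of same-numbered samples differed in sign between groups but cannot decide this, as differently numbered samples were not compared. Alternatives were leaving out each array, separate fits for each pair of groups, a replicate block, array weights, a trended and robust prior, a looser q threshold of 0.05, adjustment by Benjamini-Hochberg, further scaling (quantile, cyclic loess or median centring), other summaries of a gene's probe sets, and a filter for probe sets at or over the median of 6.30 in some group, which kept 25425 in all and 14 of the 16.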

Additional observations from a re-analysis of the deposited data

Results flagged for a closer look

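For each of the 16 probe sets, the highest and lowest of the 5 NKT-like cultures were set against the rest of the group, by the gap to the nearest culture as a share of the group's range, with 0.71 as the limit. Chance alone passes about 1 in 20 groups, and 2 of 16 passed. Fasl (1449235_at) in NKT-like replicate 2 was the highest at 11.57, with the next culture at 10.96 and a ratio of 0.762. Without that replicate the NKT-like to naive ratio of Fasl still passed. Tnfsf11 (1419083_at) in NKT-like replicate 4 was the lowest at 4.67, with the next culture at 6.03 and a ratio of 0.739. The second Tnfsf11 probe set also read lowest in that culture, at 5.42. The other groups, of 3 or 2 samples, were not tested.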

How the results depend on the processing

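Differences of the 16 probe sets were recomputed 2220 times in all. Of these, 2073 kept their side of the threshold, 94 lost it, 53 gained it and none that passed changed sign; 49 differences that passed in neither setting did change sign and are counted as kept (at most 0.31 log2 under the alternative). The number of probe sets that passed moved by over 1.5 times as follows. A q threshold of 0.05 gave 9 for NKT-like against naive cells in place of 4, 7 for cultured CD4+ against naive cells in place of 4, 5 for NKT-like against cultured CD4+ cells in place of 2 and 7 for NKT-like against activated cells in place of 4, while the share of all probe sets that passed was 35.6%, 34.2%, 4.82% and 9.23% in place of 16.4%, 15.5%, 2.18% and 3.17%. Benjamini-Hochberg adjustment gave 2 each for cultured CD4+ against naive and NKT-like against activated cells (9.83% and 2.41% of all). Array weights gave 7 for cultured CD4+ against naive, 0 for activated against naive, 5 for NKT-like against cultured CD4+ and 0 for NKT-like against activated cells (28.8%, 0.750%, 5.15% and 0.391% of all). Each pair fitted alone gave 1 for activated against naive in place of 3 and 2 for NKT-like against activated cells, both in Fasl (0.397% in place of 5.70%, and 1.28% of all). Cyclic loess and median centring each gave 2 for NKT-like against activated cells (3.60% and 2.50% of all). These scalings moved the median difference of all probe sets between NKT-like and naive cells from −0.10 as deposited to 0.02. The cause of these moves was not tested.

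Leaving out 1 array gave 2 to 5 probe sets for NKT-like against naive (lowest without either naive array), 0 to 5 for cultured CD4+ against naive (0 without naive replicate 2), 1 to 5 for activated against naive (1 without activated replicate 1 or either naive array), 1 to 4 for NKT-like against cultured CD4+ (1 without NKT-like replicate 5 or cultured CD4+ replicate 3), 0 to 4 for NKT-like against activated (0 without activated replicate 1) and 0 throughout for cultured CD4+ against activated cells. Over all probe sets, leaving out naive replicate 1 or 2 lowered the share that passed to 7.21% and 3.48% for NKT-like, 7.46% and 4.57% for cultured CD4+ and 2.49% and 1.39% for activated against naive cells. For NKT-like against activated cells the share was 4.96% without activated replicate 1, and it was 1.61% for NKT-like against cultured CD4+ cells without NKT-like replicate 5 and 1.06% without cultured CD4+ replicate 3. A lone naive or activated array was assumed to vary like the other groups.

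Samples with the same replicate number did not deviate together throughout. Their deviations from group means correlated at 0.06, 0.03 and −0.19 for NKT-like and cultured CD4+ replicates 1 to 3, and, for replicates 1 and 2, at −0.04 and 0.00 for NKT-like and activated, −0.19 and 0.13 for NKT-like and naive, −0.50 and −0.42 for cultured CD4+ and activated, −0.11 each for cultured CD4+ and naive and 0.28 each for activated and naive samples. The 2 values for activated and naive samples are equal by construction, since deviations in groups of 2 mirror each other. Differently numbered samples were not compared, so these correlations cannot decide whether a number marks a pair. The labels tie a number to no shared animal or day, so the samples were taken to share only a number. With the replicate number as a block, the counts were 1 for NKT-like against naive, 1 for cultured CD4+ against naive, 1 for activated against naive, 0 for NKT-like against cultured CD4+ and 0 for NKT-like against activated cells, beside 2.60%, 4.59%, 1.12%, 0.682% and 0.351% of all probe sets.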
